A study of Mus musculus with 15 samples.

Results

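The genes described here flank Cx3cr1 on mouse chromosome 9, where the CreER driver of the study was inserted. They are 53 listed protein-coding genes whose start sites lie between 1.56 Mb on the centromeric side (Golga4) and 4.03 Mb on the telomeric side (Ccr2) of the Cx3cr1 start site, out of 54532 genes in the bulk table. Cx3cr1 itself was left out. Of the 53, 17 lie on the centromeric side and 36 on the telomeric side, from 118506267 to 124113557 of chromosome 9 in the GRCm38 (mm10) assembly by the GENCODE M21 annotation. The last annotated gene of the chromosome ends 4.42 Mb beyond the Cx3cr1 start site. The genes were selected on position, and by name with bulk changes of these same libraries already known, so the bulk values of the 53 genes are given as a description, and the adjusted p-values come from a fit over all tested genes that did not single out the list.

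The mice were on C57BL/6 and 8 months old, 6 months after a tamoxifen dose of 1.5 mg given at 2 months. All carried ATG7FF, the floxed Atg7 allele, and Atg7 encodes an enzyme needed to form autophagosomes. Bulk RNA came from forebrain hemispheres without cerebellum of 6 control libraries (ATG7FF;5xFAD) and 7 knockout libraries (ATG7FF;Cx3cr1CreER;5xFAD, called cKO here). The 5xFAD transgenes carry mutations of familial Alzheimer's disease and give amyloid plaques. Single-cell RNA came from sorted microglia (CD11b-high, CD45-low) of mice without 5xFAD, with 1 control library (ATG7FF) pooled from 3 forebrains and 1 cKO library (ATG7FF;Cx3cr1CreER) pooled from 4. Cre was thus present in the cKO mice only, so the deletion of Atg7, the CreER allele at Cx3cr1 and any flanking sequence carried with that allele cannot be told apart. The labels do not name the strain in which the allele was made or any backcrossing, and sequence variants of the segment were not analysed here. Whether every bulk library stands for its own mouse is not stated in the labels, and the p-values therefore measure only the spread between these libraries, which may be technical.

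A knock-in allele is bred together with the DNA on either side of it. Crossing-over separates a nearby gene from the allele less often than a distant one, and the flanking segment can therefore come from the strain in which the allele was made. Sequence differences in such a segment can alter the RNA level of a linked gene in mice that carry the allele, whatever the allele itself does. The segment here holds genes of many kinds, among them Myd88, the adaptor of Toll-like and interleukin-1 receptors, Ctnnb1, which encodes beta-catenin, the ribosomal protein genes Rpsa and Rpl14, Mobp, an oligodendrocyte myelin gene, and towards the end of the chromosome a cluster of chemokine receptor genes. Cx3cr1, the fractalkine receptor, is expressed in the brain mainly by microglia.

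Promoter sequences of the genes on which the results turn are shown for what lies around their RefSeq start sites. The Lztfl1 and 2010315B03Rik genes were lower in cKO forebrain, and Cx3cr1 carries the insertion. RefSeq promoters (250 bases before to 50 after the start, assembly GRCm38.p6) were found for 47 of the 53 listed genes. Clec3b had no entry in that table. All 3 genes shown are on the minus strand, and each sequence is written 5' to 3' along the gene, with CCAAT and GGGCGG on either strand in capitals. The windows are chr9:123717576-123717875 for Lztfl1, chr9:124312645-124312944 for 2010315B03Rik and chr9:120068247-120068546 for Cx3cr1. The GENCODE start of Cx3cr1 at 120069879, from which distances are measured here, lies outside its window.
Lztfl1: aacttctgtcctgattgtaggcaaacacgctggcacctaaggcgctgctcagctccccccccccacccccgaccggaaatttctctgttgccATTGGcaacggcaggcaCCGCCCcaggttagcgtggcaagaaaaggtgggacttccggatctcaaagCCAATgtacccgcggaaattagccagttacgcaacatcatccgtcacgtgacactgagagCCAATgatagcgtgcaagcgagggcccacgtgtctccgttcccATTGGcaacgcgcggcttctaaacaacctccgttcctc
2010315B03Rik: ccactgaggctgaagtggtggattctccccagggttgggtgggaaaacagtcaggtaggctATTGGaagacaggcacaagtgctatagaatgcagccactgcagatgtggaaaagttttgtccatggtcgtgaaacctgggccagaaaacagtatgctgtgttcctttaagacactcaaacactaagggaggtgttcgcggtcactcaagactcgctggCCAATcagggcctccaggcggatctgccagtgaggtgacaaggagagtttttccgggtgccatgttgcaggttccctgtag
Cx3cr1: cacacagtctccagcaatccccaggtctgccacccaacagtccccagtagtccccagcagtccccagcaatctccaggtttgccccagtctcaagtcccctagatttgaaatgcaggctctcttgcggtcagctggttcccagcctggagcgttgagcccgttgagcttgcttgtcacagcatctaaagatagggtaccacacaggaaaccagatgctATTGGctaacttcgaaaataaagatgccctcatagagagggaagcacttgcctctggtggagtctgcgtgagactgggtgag
The Lztfl1 window held 4 CCAAT matches, 1 GGGCGG match and 21 CpG pairs. The 2010315B03Rik window held 2 CCAAT matches and 6 CpG pairs, and the Cx3cr1 window 1 CCAAT match and 5 CpG pairs, with no GGGCGG in either. TATAAA was searched as well and was in none of the 3. No 2 marked matches overlapped. Over 32851 RefSeq promoters of this length, CCAAT was in 37.4%, GGGCGG in 35.7% and TATAAA in 13.6% on either strand, with a median of 7 CpG pairs.

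The bulk libraries held 16658707 to 22355512 counts, and 16956 genes passed the filter on low counts. Cx3cr1 RNA ran from 59.9 to 68.3 CPM (read counts scaled to the library total) in the controls and from 20.8 to 28.0 CPM in the cKO libraries, so no cKO library reached the control range. It fell 2.59-fold (log2 change -1.37, SE 0.07, adjusted p = 5.03e-11, edgeR). Atg7 did not separate the groups in whole forebrain (21.2 to 27.4 CPM against 22.8 to 25.8 CPM, adjusted p = 0.991). Of 12 microglia markers, 8 fell, and their summed level was 581 to 700 CPM in the controls against 406 to 443 CPM in the cKO libraries. In bulk tissue, fewer microglia and less RNA per microglial cell cannot be told apart.

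Of the 53 flanking genes, 45 were tested in bulk. One, Clec3b, rose and one, Lztfl1, fell in the cKO forebrains, while the edgeR fit called 0.330% of all tested genes (0.0531% higher and 0.277% lower). The same 1 higher and 1 lower gene were those whose control and cKO libraries did not overlap, which held for 0.442% of all tested genes (0.130% higher, 0.313% lower). Of the 45, 26 had a higher and 19 a lower mean log2 level in the cKO libraries. Their median log2 change was 0.02, and their median absolute log2 change was 0.0542 beside 0.0753 over all tested genes. At an unadjusted p under 0.05 stood 4 of the 45 (8.89%), beside 7.71% of all tested genes. The 8 genes left untested were Xirp1, Cdcp1 and the receptor genes Ccr9, Cxcr6, Xcr1, Ccr1, Ccr3 and Ccr2.

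**Figure D1:**
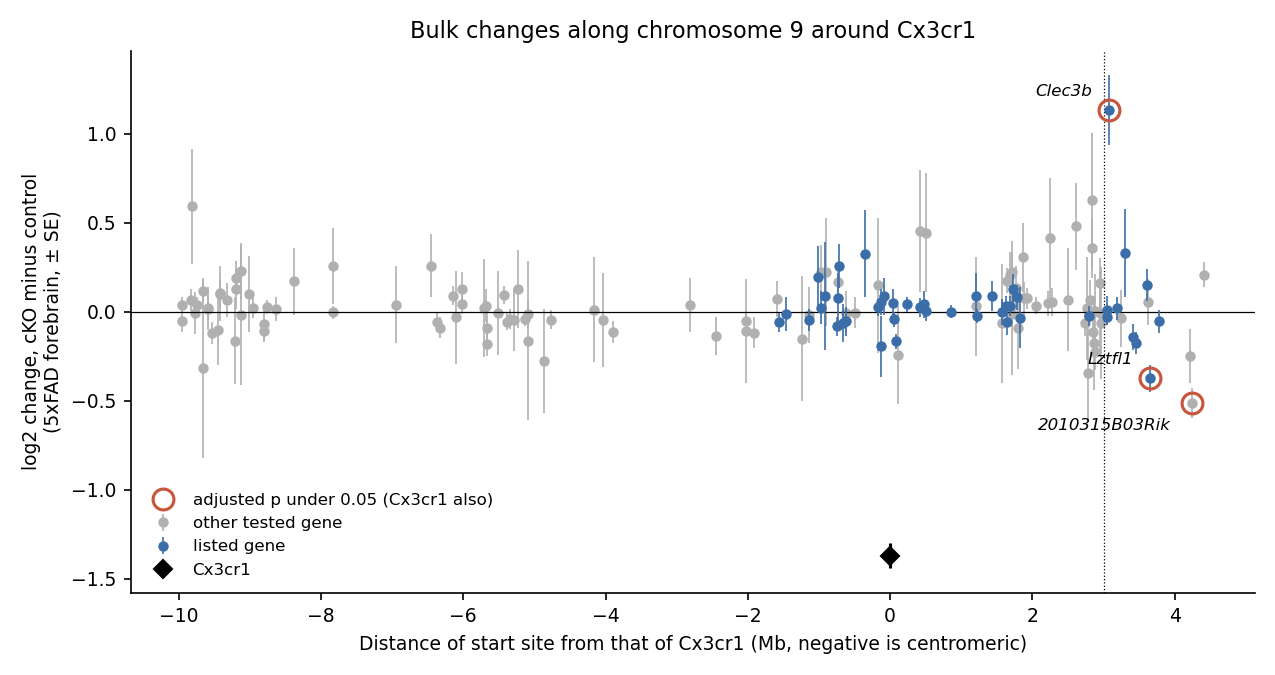
Log2 change in bulk forebrain (cKO minus control, ± SE) of tested genes within 10 Mb of Cx3cr1, by distance of its start site, with listed genes in blue, other genes in grey and Cx3cr1 as a black diamond. Red rings mark adjusted p under 0.05: the 3 ringed genes lie 3.08 to 4.24 Mb on the telomeric side, beyond the dotted line at 3 Mb, and none lies between that line and Cx3cr1.

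The tested genes closest to the insertion were not called. Xirp1, at 0.046 Mb on the centromeric side, was not tested (3 to 15 raw counts in the controls, 2 to 11 in the cKO libraries). On the centromeric side the 4 nearest tested genes were Csrnp1, Ttc21a, Gorasp1 and Wdr48, at 0.085 to 0.175 Mb. Csrnp1, a nuclear protein induced by AXIN1, ran from 11.8 to 14.2 CPM (median 12.9) in the controls and from 11.8 to 20.01 CPM (median 12.8) in the cKO libraries. Its log2 change was 0.09 (adjusted p = 0.852), and -0.02 without cKO replicate 5, the library at 20.01 CPM. Ttc21a ran from 2.24 to 4.38 CPM (median 2.91) in the controls and from 1.83 to 3.17 CPM (median 2.68) in the cKO libraries (log2 change -0.19, adjusted p = 0.801), and its log2 change was -0.04 without control replicate 4, the library at 4.38 CPM. Both pairs of groups overlapped widely.

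Gorasp1, which encodes a Golgi stacking protein, had 28.7 to 36.5 CPM (median 33.3) in the controls and 28.9 to 41.2 CPM (median 34.3) in the cKO libraries (log2 change 0.05, SE 0.07). Wdr48, a cofactor of deubiquitinating enzymes, had 57.8 to 67.8 CPM (median 61.0) against 59.9 to 65.9 CPM (median 61.6), a log2 change of 0.03 (SE 0.05). The groups overlapped in both genes, and cKO replicate 7 of Gorasp1, at 41.2 CPM, lay above all controls. The exons of these genes share 1331 bases on opposite strands, and the labels do not say if the counting used strand. Whether reads of this stretch were assigned to either gene or left out is therefore not known. The same limit holds for 17 of the 53 genes, which share exon bases with a gene on the opposite strand, and 5 share them with a gene on their own strand.

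On the telomeric side the nearest were Slc25a38, Rpsa, Mobp and Myrip, at 0.04 to 0.232 Mb. Slc25a38, a mitochondrial carrier needed for haem synthesis, had 18.5 to 21.6 CPM (median 21.1) in the controls and 18.2 to 24.3 CPM (median 21.6) in the cKO libraries. Rpsa, a protein of the small ribosomal subunit, had 343 to 372 CPM (median 360) against 320 to 375 CPM (median 350). Myrip, which links Rab27 vesicles to myosin, had 65.9 to 72.5 CPM (median 69.3) against 69.6 to 73.0 CPM (median 71.2). The log2 changes of these 3 genes lay between -0.04 and 0.05, with adjusted p from 0.825 to 0.877.

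Mobp stood apart from its neighbours. Its level was 614 to 686 CPM (median 638) in the controls and 527 to 648 CPM (median 572) in the cKO libraries. Of the 7 cKO libraries, 6 lay below every control library, and only cKO replicate 4, at 648 CPM, lay inside the control range. The log2 change was -0.17 (SE 0.04, adjusted p = 0.201). Without cKO replicate 4 the adjusted p was 0.0452 and with an offset for GC content and length 0.0282, so the call depends on these choices. None of 8 other oligodendrocyte markers was called, with a summed level of 4823 to 5165 CPM in the controls and 4316 to 5042 CPM in the cKO libraries. The part of these markers in the Mobp values was not tested.

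**Figure D2:**
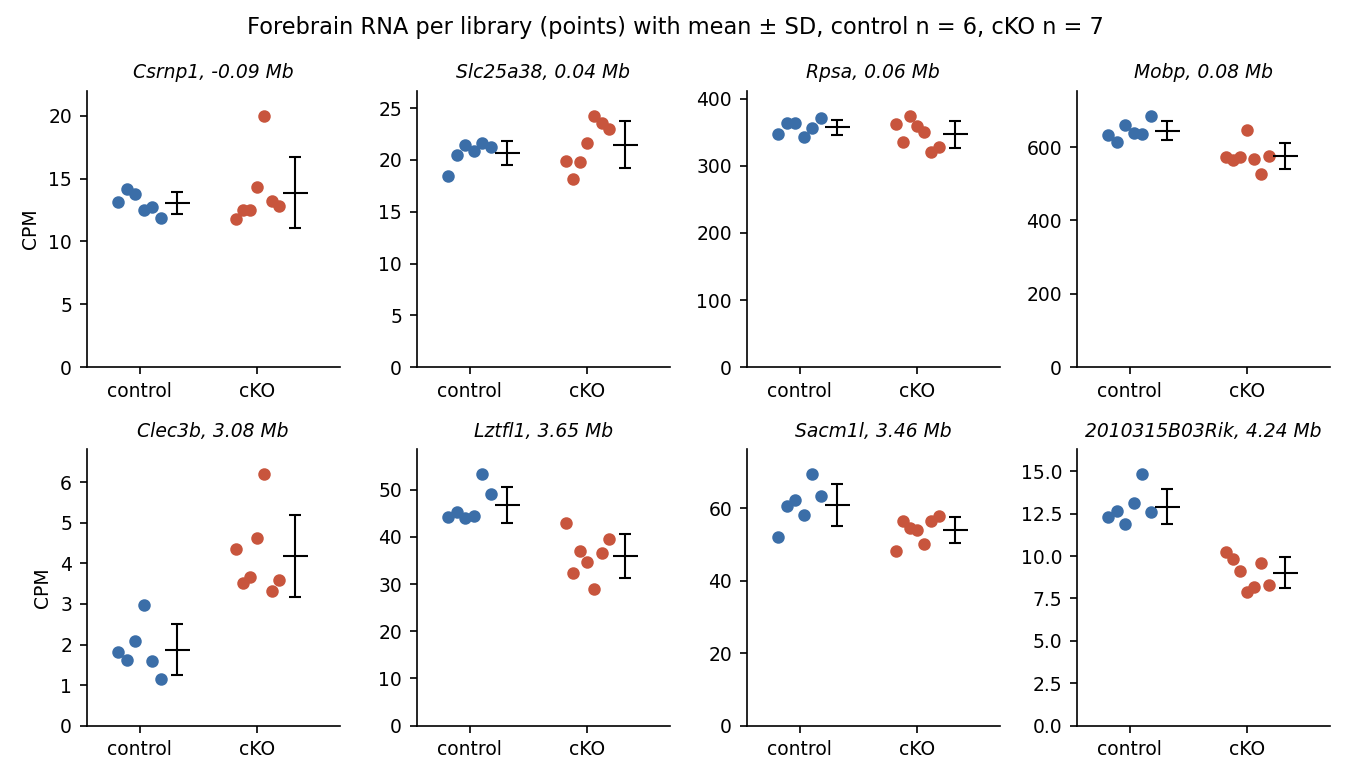
Bulk CPM of 4 genes next to Cx3cr1 (top row) and of 4 genes at 3.08 to 4.24 Mb (bottom row), 1 point per library, with mean ± SD (6 control, 7 cKO). The groups overlap for the 4 near genes, though 6 of 7 cKO points lie below all controls for Mobp, and do not overlap for Clec3b, Lztfl1 and 2010315B03Rik, while those of Sacm1l do.

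Clec3b lies 3.08 Mb from the Cx3cr1 start site (123150946 to 123157432, plus strand) and was the only listed gene that rose. It encodes tetranectin, a secreted C-type lectin that binds plasminogen. The controls had 1.81, 1.62, 2.08, 2.98, 1.60 and 1.15 CPM in replicates 1 to 6, and the cKO libraries 4.36, 3.51, 3.68, 4.62, 6.20, 3.32 and 3.59 CPM in replicates 1 to 7. All 7 cKO libraries lay above all 6 controls. The mean rose 2.23-fold, from 1.87 ± 0.622 CPM (SD, n = 6) to 4.18 ± 1.01 CPM (SD, n = 7), with a log2 change of 1.13 (SE 0.20, adjusted p = 0.00543). It was called with each of the 13 libraries left out in turn. The nearest genes on either side, Exosc7 and Cdcp1, showed no such shift: Exosc7, an RNA exosome subunit, had a log2 change of 0.01 (SE 0.08), and Cdcp1 had 5 to 18 raw counts in the controls and 4 to 24 in the cKO libraries.

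Markers of cell types of the brain vessels and their surroundings were not called beside Clec3b. None of 10 tested leptomeningeal and perivascular fibroblast markers was called, and their summed level was 137 to 150 CPM in the controls and 135 to 158 CPM in the cKO libraries. None of 8 endothelial markers was called (271 to 287 CPM against 264 to 291 CPM). Sorted microglia held 0 (control) and 2 (cKO) Clec3b UMIs, both under the 3 UMIs taken as the floor (0.329 and 0.0749 CPM). No fold is given for it there.

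Lztfl1 lies 3.65 Mb from the Cx3cr1 start site (123694416 to 123717697, minus strand) and was the only listed gene that fell. Its protein regulates traffic of the BBSome, a cargo adaptor of primary cilia. The controls had 44.2, 45.3, 44.0, 44.5, 53.3 and 49.1 CPM in replicates 1 to 6. The cKO libraries had 43.0, 32.3, 37.0, 34.8, 28.9, 36.7 and 39.5 CPM in replicates 1 to 7. The groups did not overlap, although cKO replicate 1 came close to the lowest control. The mean fell 1.30-fold, from 46.8 ± 3.73 CPM (SD, n = 6) to 36.0 ± 4.62 CPM (SD, n = 7), with a log2 change of -0.37 (SE 0.08, adjusted p = 0.0281). The call was lost in 8 of the 13 fits that left out 1 library, those without control replicate 2, 3, 5 or 6 or cKO replicate 2, 3, 4 or 6, with adjusted p from 0.0564 to 0.103 there and log2 changes from -0.42 to -0.33 over all 13 fits. The log2 change was -0.28 with the offset for GC content and length.

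Farther out lies 2010315B03Rik (124291804 to 124312696), at 4.24 Mb and not on the list. It had 11.9 to 14.8 CPM (median 12.6) in the controls and 7.87 to 10.2 CPM (median 9.14) in the cKO libraries, with no overlap. It fell 1.43-fold (log2 change -0.51, SE 0.09, adjusted p = 0.00414). At the other edge of the listed range no shift was seen: Golga4, the outermost listed gene, had a log2 change of -0.06 (SE 0.05), and Eomes, the next tested gene outside it, 0.07 (SE 0.10).

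The other tested listed genes near Clec3b and Lztfl1 were not called. Lars2, the mitochondrial leucyl-tRNA synthetase at 3.30 Mb, had 65.7 to 178 CPM (median 124) in the controls and 112 to 217 CPM (median 143) in the cKO libraries. Its log2 change of 0.33 (SE 0.25, adjusted p = 0.779) was among the 5 largest in absolute size, and its libraries were spread over more than the difference between groups. Limd1, a LIM-domain scaffold protein, had a log2 change of -0.14 (SE 0.07, adjusted p = 0.666). Sacm1l, a phosphoinositide phosphatase at 3.46 Mb, had 52.1 to 69.5 CPM (median 61.5) against 48.2 to 57.8 CPM (median 54.7), overlapping groups, and a log2 change of -0.18 (SE 0.06, adjusted p = 0.482). Slc6a20a, a transporter of imino acids, had 0.15 (SE 0.09) and Fyco1, which links autophagosomes to microtubule motors and lies beyond Lztfl1, -0.05 (SE 0.06).

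The remaining genes of large log2 change lay close to Cx3cr1 on the centromeric side and had low counts. Scn10a, a sodium channel at 0.351 Mb, had 0.573 to 0.910 CPM (median 0.656) in the controls and 0.592 to 1.17 CPM (median 0.942) in the cKO libraries (log2 change 0.33, SE 0.24). Xylb, a xylulokinase at 0.712 Mb, had 4.81 to 6.68 CPM (median 5.60) against 4.91 to 8.58 CPM (median 6.74), a log2 change of 0.26 (SE 0.12, adjusted p = 0.645). The groups overlapped in both genes, with 4 of 7 cKO libraries of Scn10a and 5 of 7 of Xylb above the highest control.

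The called genes did not lie next to the insertion. Taking tested genes by position alone, listed or not, 102 lay within 5 Mb of Cx3cr1, 45 of them listed. Within 3 Mb, a boundary chosen after the values were seen, 0 of 82 genes were called and 5 (6.1%) had an unadjusted p under 0.05, near the 7.71% of all tested genes. Of these 82, 35 were listed, with 1 at an unadjusted p under 0.05 (Mobp). On the telomeric side between 3 and 5 Mb, 3 of 15 genes were called (20%) and 5 (33.3%) had an unadjusted p under 0.05. On the centromeric side at the same distance 0 of 5 were called. Those 5 genes had a median level of 1.21 CPM and a median SE of 0.264. The 15 telomeric genes had 22.9 CPM and 0.0839, so a like comparison of the sides cannot be made. The 82 genes within 3 Mb had 7.87 CPM and 0.11, also less precise than the 15 telomeric genes. The 35 listed genes among the 82 had 33.7 CPM and 0.0743.

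The median absolute log2 change was 0.0772 within 1 Mb (29 genes), 0.0764 from 1 to 2 Mb (29 genes), 0.0676 from 2 to 3 Mb (24 genes), 0.128 from 3 to 5 Mb (20 genes), 0.068 from 5 to 10 Mb (50 genes) and 0.0688 from 10 to 20 Mb (143 genes). Of these bins, only that from 3 to 5 Mb stood above 0.08. The planned bin ran from 2 to 5 Mb (44 genes), with a median of 0.0881. It was split at 3 Mb after the values were seen, so the height at 3 to 5 Mb depends on that cut. Median standard errors were 0.0847 from 3 to 5 Mb and 0.0933 within 1 Mb, so genes within 1 Mb were measured with about the same precision. From 1 to 2 Mb the median was 0.0957. From 2 to 3 Mb it was 0.159, at a median level of 2.48 CPM, so that bin was measured less precisely. Over the tested genes within 20 Mb, which share the same libraries, Spearman's rho between distance and absolute log2 change was -0.05, a negative value meaning larger changes nearer to Cx3cr1. It ran from -0.139 (without cKO replicate 5) to -0.008 (without cKO replicate 7) with 1 library left out. With the offset for GC content and length it was -0.115, without the filter on low counts 0.017, and within 10 Mb 0 to 3 decimals, so its size and its sign depended on these choices.

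**Figure D3:**
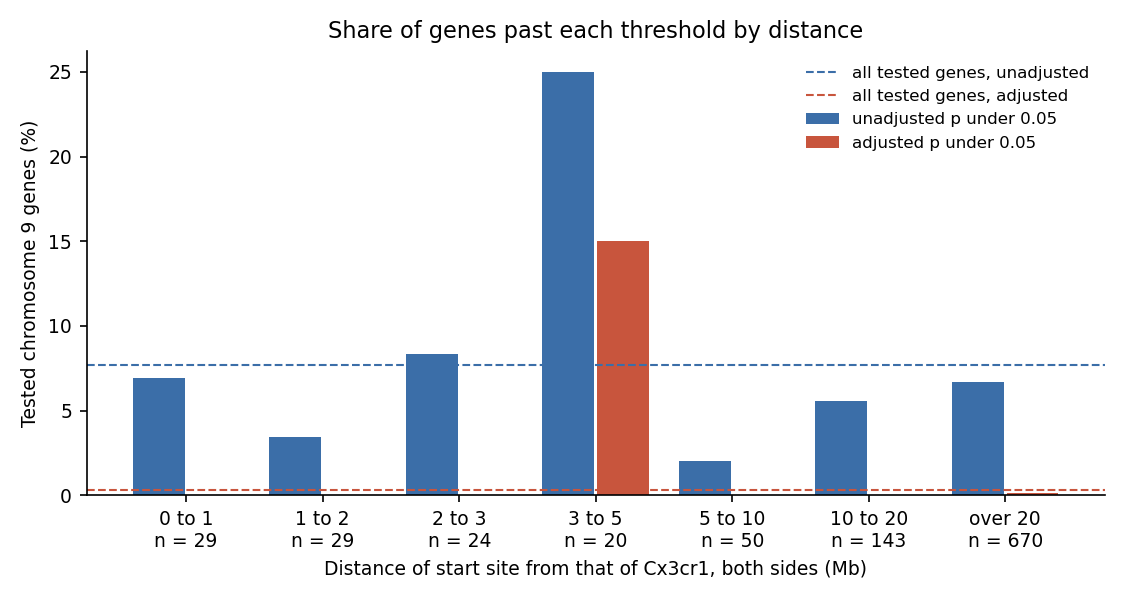
Percentage of tested chromosome 9 genes past an unadjusted (blue) or adjusted (red) p of 0.05, by distance from Cx3cr1 on both sides; dashed lines give the same over all tested genes. The 20 genes at 3 to 5 Mb stand at 25.0% and 15.0%, the 3 bins of the 82 nearer genes between 3.45% and 8.33% unadjusted and at 0% adjusted. The planned bin from 2 to 5 Mb (44 genes, 15.9% and 6.82%) was split at 3 Mb after the values were seen.

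For comparison, 91 genes lay within 5 Mb of Atg7 on chromosome 6, where both groups carry the floxed allele. None of them was called and 4 (4.4%) had an unadjusted p under 0.05, with a median absolute log2 change of 0.0532. Elsewhere, called genes also lay together: C1qa, C1qb and C1qc on chromosome 4, complement genes of microglia, were 3 called genes within 1.5 Mb. So were Clec3b, Lztfl1 and 2010315B03Rik on chromosome 9. The C1q genes are among the 12 microglia markers and were called lower. On chromosome 9, Clec3b rose while Lztfl1 and 2010315B03Rik fell. Why called genes lay together was not tested in either place. The exonic GC content of the listed called genes lay near opposite ends of the range of the 53 genes (37.0% to 63.8%), at 60.2% for Clec3b and 37.5% for Lztfl1.

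By role, the groups of organelle traffic and of adhesion and matrix each held 1 called gene, and the other groups none. Among 8 genes of innate and growth factor signalling, 0 were called, with log2 changes from -0.14 (Limd1) to 0.09 (Ulk4). Myd88 had 3.68 to 6.95 CPM (median 5.06) in the controls and 4.15 to 6.45 CPM (median 5.09) in the cKO libraries. Ctnnb1 had 415 to 456 CPM (median 427) against 418 to 452 CPM (median 429), and its 95% interval ran from -0.08 to 0.08 in log2. Acvr2b, an activin receptor, had a log2 change of -0.06 (SE 0.11), and Oxsr1, a stress-responsive kinase, -0.08 (SE 0.05).

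None of the 4 ribosome and translation genes was called, and apart from Lars2 their log2 changes lay between -0.04 (Rpsa) and 0.03 (Eif1b). None of the 5 genes of mitochondrion, peroxisome and metabolism was called (log2 changes -0.05 to 0.26), among them Higd1a, a hypoxia-induced mitochondrial protein, at 0.08 (SE 0.07). Of 9 genes of Golgi, vesicle and organelle traffic, Lztfl1 fell and the other 8 were not called. Trak1, an adaptor that ties mitochondria to kinesin, had 201 to 209 CPM in the controls and 191 to 218 CPM in the cKO libraries. None of 6 nuclear and RNA genes was called, with log2 changes from -0.05 (Nktr) to 0.09 (Csrnp1).

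Of 7 neuronal and glial genes 0 were called. Cck, the neuropeptide cholecystokinin, had 166 to 236 CPM (median 217) in the controls and 188 to 271 CPM (median 217) in the cKO forebrains (log2 change 0.09, SE 0.09). Vipr1, a receptor of vasoactive intestinal peptide, had a log2 change of -0.001 (SE 0.08). Of 7 genes of adhesion, matrix, cytoskeleton and other kinds, 5 were tested and Clec3b was the 1 that changed, while Itga9, an integrin subunit, had a log2 change of -0.01 (SE 0.10).

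The chemokine receptor genes could hardly be measured in whole forebrain. Of 7, only Ackr2, a receptor that scavenges chemokines, passed the filter. It had 2.03 to 2.85 CPM (median 2.54) in the controls and 1.64 to 3.06 CPM (median 2.43) in the cKO libraries, and its log2 change of -0.03 (SE 0.17) took the opposite sign when any of 4 libraries was left out. Ccr2, the receptor that draws monocytes from blood, had 2 to 8 raw counts per control library and 2 to 12 per cKO library. Ccr1 had 1 to 10 and 1 to 12, Cxcr6 1 to 5 and 1 to 5, Xcr1 0 to 2 and 0 to 6, and Ccr3 0 to 7 and 0 to 3 raw counts. The groups overlapped for each of these 5 genes.

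Ccr9, a receptor of gut-homing lymphocytes whose gene spans Lztfl1 on the opposite strand, had 7 to 12 raw counts per control library (median 10) and 1 to 7 per cKO library (median 3). In a fit without the filter on low counts its log2 change was -1.56 (SE 0.49, unadjusted p = 0.00178, adjusted p = 0.314), which is not a call, and its groups did not overlap after scaling. The Ccr9 model shares 1954 exon bases with other genes on the opposite strand, among them Slc6a20a, and 269 with Gm17200 on its own strand. None of the 8 untested genes was called in that fit.

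In sorted microglia the flanking genes were measured in a second setting, without 5xFAD. Cells with at least 500 genes and at most 10% mitochondrial UMIs were summed, 6243 in the control library (9122532 UMIs, median 1392 per cell) and 8874 in the cKO library (40031404 UMIs, median 4532 per cell). The libraries shared 22 barcodes. The 12 microglia markers summed to 51808 and 46811 CPM and the 5 monocyte markers, of which Ly6c2 alone had 0 UMIs in both, to 11.9 and 10.97 CPM. Each genotype had a single library, so no test was made. Ratios are cKO over control CPM with exact 95% intervals that cover counting error only. The cKO library was the deeper one, and the part of depth in these ratios was not tested.

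Of the 53 genes, 20 reached 20 CPM in 1 library, and none of them differed by 1.5-fold, beside 3.31% of the 6769 genes at that level (1.88% higher and 1.43% lower). Among the 20, 16 were higher and 4 lower in the cKO library, with a median log2 ratio of 0.15 beside 0.05 over all 6769. The interval lay above 1 for 9 genes, below 1 for 3 and held 1 for 8. Lars2 had the highest ratio, 1.43 (1.38 to 1.48), at 443 and 633 CPM. Nktr, a cyclophilin-related protein, had the lowest, 0.862 (0.822 to 0.903), at 244 and 210 CPM. The count of higher genes fell to 12 of 20 when cells with under 1000 genes were left out, and Golga4 then went from 1.11 (1.02 to 1.22) to 0.863.

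Of the genes next to Cx3cr1, those above 20 CPM had ratios near 1 in microglia. Wdr48 stood at 1.14 (1.01 to 1.28), Rpsa at 0.947 (0.920 to 0.974) and Eif1b at 1.06 (0.996 to 1.12). Csrnp1 and Slc25a38, under 20 CPM in both libraries, stood at 0.721 (0.595 to 0.876) and 0.772 (0.646 to 0.927), both lower in the cKO library. Cx3cr1 stood at 0.519 (0.513 to 0.524), from 5336 to 2767 CPM. Myd88 (0.953, 0.854 to 1.06) and Ctnnb1 (1.08, 1.00 to 1.16) lay near 1 as well.

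**Figure D4:**
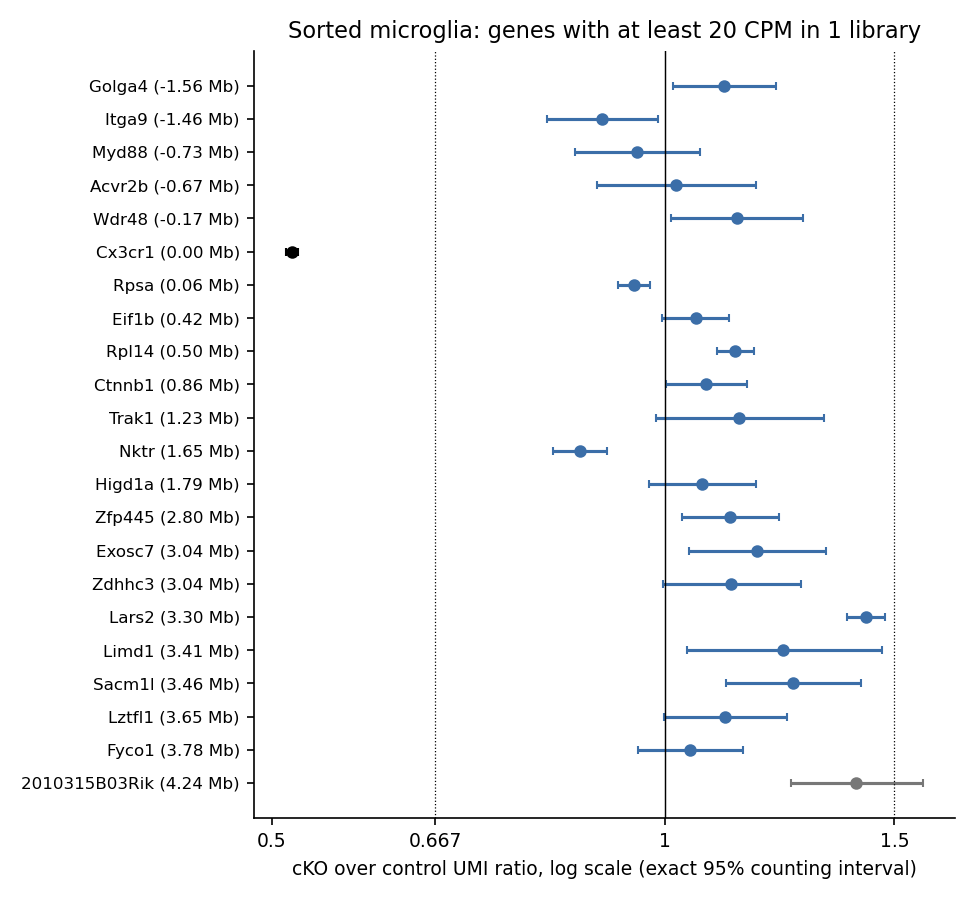
Ratio of cKO over control CPM in sorted microglia (log scale, exact 95% counting intervals, 1 library per genotype) for genes of at least 20 CPM, ordered along chromosome 9, with dotted lines at 1.5-fold. The 20 listed genes (blue) lie between 0.862 and 1.43, the unlisted 2010315B03Rik (grey) at 1.40, and Cx3cr1 (black, 0.519) lies below the lower dotted line.

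Lztfl1 and 2010315B03Rik, called lower in bulk, were not lower in microglia, and Clec3b was under the floor there. Lztfl1, which fell in forebrain, stood at 44.5 CPM in control and 49.5 CPM in cKO microglia, with a ratio of 1.11 (1.00 to 1.24). The unlisted 2010315B03Rik, which also fell in forebrain, stood at 37.4 and 52.4 CPM, a ratio of 1.40 (1.25 to 1.58). Sacm1l, which was lower without a call in forebrain, stood at 1.25 (1.11 to 1.41) in microglia. The assays differ in tissue, in the 5xFAD transgenes and in the pooling of mice, and the difference between them was not tested.

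All 7 listed chemokine receptor genes were below 20 CPM in sorted microglia. Ccr1 had 76 control UMIs (8.33 CPM, 6.56 to 10.4) and 134 cKO UMIs (3.35 CPM, 2.80 to 3.96), with a ratio of 0.402 (0.301 to 0.540). Ccr2 had 72 and 155 UMIs (7.89 and 3.87 CPM), a ratio of 0.491 (0.369 to 0.658). Ccr2 is itself 1 of the 5 monocyte markers (11.9 and 10.97 CPM in sum). Its own 7.89 and 3.87 CPM are part of these sums, which therefore do not show the other markers alone. The part of the other markers in this ratio was not tested. Ccr3 (0.403, 0.196 to 0.867) and Ccr9 (0.456, 0.248 to 0.870) were also lower, from 13 and 17 control UMIs. The intervals of Xcr1 (0.532, 0.192 to 1.69) and Cxcr6 (1.37, 0.304 to 12.6) held 1, and Ackr2 had 0 UMIs in both libraries. Among cells with at least 1000 genes the ratio of Ccr1 was 0.668 and that of Ccr2 0.353.

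**Figure D5:**
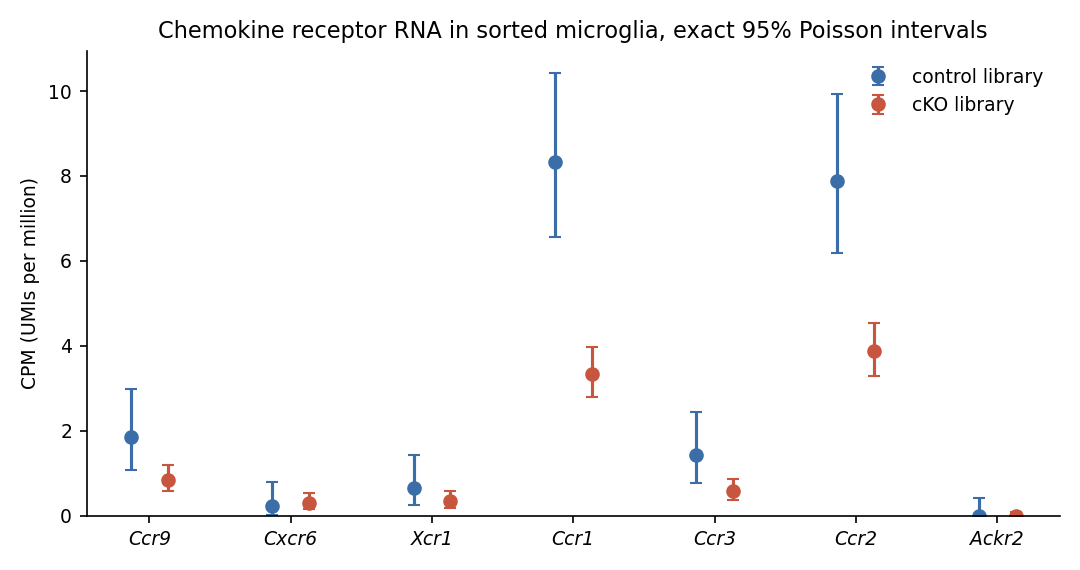
CPM (from UMI counts) of the 7 listed chemokine receptor genes in the control (blue) and cKO (red) microglia libraries, with exact 95% Poisson intervals for counting error. Ccr1 and Ccr2 lie near 8 CPM in the control library and below 4 CPM in the cKO library, and Ackr2 is at 0 in both.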

How the data were processed

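For bulk RNA the authors deposited raw read counts for each gene. The submitters' processing notes name HISAT2 2.0.5, featureCounts 1.5.0-p3 and the mm10 build. For single cells they deposited UMI counts from 10x 3' v3 libraries, and the file headers name Cell Ranger 6.1.0. The strand setting and the annotation release were not given in the sources.

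Bulk counts were fitted in R 4.3.3 with edgeR 4.0.16 (filterByExpr, TMM, robust quasi-likelihood F-test, two-sided, Benjamini-Hochberg over 16956 genes, threshold 0.05). The biological coefficient of variation was 10.02%, and no 2 libraries of a group agreed within sampling noise. The fit was tested on simulated data. Single-cell UMIs were summed in Python 3.11.15 (SciPy 1.17.1) without doublet calling. Zbtb47 appears in the files as Zfp651. The members, gene lists and tests were chosen with earlier results of these data known. Named with values are called or non-overlapping genes, the 5 largest changes, the 4 nearest tested genes on each side, the chemokine receptors and called unlisted genes within 5 Mb. Other genes illustrate role groups. One gene is not reported here and enters no count by position. DESeq2 1.42.0, other filters, a replicate block, a GC and length offset and leaving out each library were the alternatives.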

Additional observations from a re-analysis of the deposited data

Results flagged for a closer look

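In 34 groups of libraries of the named genes, 5 held a library far from the others, where chance gives about 1 in 20. Csrnp1 stood at 20.01 CPM in cKO replicate 5, with the next library at 14.3. Ttc21a stood at 4.38 CPM in control replicate 4 (next 3.01), and Wdr48 at 67.8 CPM in control replicate 5 (next 61.3). Slc25a38 stood at 18.5 CPM in control replicate 1, below the next at 20.5. Mobp stood at 648 CPM in cKO replicate 4 (next 575), the library without which Mobp was called lower. These 5 genes are all among the 8 tested genes named as nearest to Cx3cr1. Only named genes were checked, many of them named for that position, so the count does not show a trait of the locus.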

How the results depend on the processing

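Clec3b was called higher under all 6 alternative settings and with each library left out. The listed genes called lower numbered 1, but 0 with the replicate block, 2 with the GC and length offset (Mobp added) and 0 to 1 with 1 library left out. The listed genes with separate groups on the lower side numbered 2 without the filter on low counts (Ccr9 added) and 1 to 2 with 1 library left out. Within 5 Mb, 1 gene was higher and 2 lower. Within 2 Mb these counts were 0 and 0. With the replicate block 0 were lower, and 1 to 2 with 1 library left out (1 without each library that ended the Lztfl1 call, other than cKO replicate 4). Whether equal replicate numbers pair the libraries was not settled by correlations of same-numbered libraries. These ran from -0.322 to 0.171, with 3 of 6 above 0.1, and 1 control library correlated best with its own number. Over all genes, 9 higher calls became 19 with the DESeq2 Wald test, 23 without the filter, 1 with the replicate block and 3 to 23 with 1 library left out (3 without control replicate 3 or 4 or cKO replicate 7, 4 without control or cKO replicate 2, 5 without control replicate 5 or 6 or cKO replicate 6, 23 without cKO replicate 1). The 47 lower calls became 21 with the block and 30 to 50 with 1 library left out (30 without control replicate 5, 31 without cKO replicate 3 or 6). The rho of distance turned from -0.05 to 0.017 without the filter, was 0 within 10 Mb and -0.115 with the offset, and ran from -0.139 (without cKO replicate 5; -0.118 without cKO replicate 3) to -0.008 (without cKO replicate 7) with 1 library left out. Slc25a38 turned to -0.0082 with the offset, Csrnp1 to -0.0182 without cKO replicate 5 (range with 1 library left out -0.0182 to 0.1255), and Ackr2 to 0.0286 with the block and 0.0098, 0.006, 0.0274 and 0.0491 without control replicate 6 or cKO replicate 4, 5 or 7 (range -0.0922 to 0.0491). In microglia 1 listed gene (Cck) passed 1.5-fold at a limit of 10 CPM. The cause of these moves was not tested. Counts under 1 CPM limit what bulk can show for the chemokine receptors, and 1 library per genotype what the single cells can.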

Other observations

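Cck, which was chosen here after its values were seen, had 4 UMIs in 4 control microglia and 428 UMIs in 167 cKO microglia. This is 0.438 against 10.7 CPM, a ratio of 24.4 (95% counting interval 9.45 to 89.9) between single libraries, at a level below the 20 CPM limit. In the cKO library 81 cells held at least 2 Cck UMIs, 20 cells at least 5 and 1 cell 26, and all 167 also held a UMI of the microglia marker P2ry12, as did 8543 of all 8874 cells of the library. The neuronal genes Snap25, Slc17a7 and Gad1 had 24, 4 and 0 UMIs in the same library, with no cell above 1. In the control library they had 1, 0 and 0 UMIs. The 5 excitatory neuron markers summed to 3.73 CPM in the control and 9.12 CPM in the cKO library. The 6 inhibitory neuron markers summed to 0.219 and 0.375 CPM. The part of neuronal RNA in the Cck ratio was not tested. The median depth of the 167 cells was 5561 UMIs. In forebrain, where Cck is a neuronal transcript, the groups overlapped.

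Further listed genes under 20 CPM, also chosen after their values were seen, stood above 1 in microglia. Xirp1, 0.046 Mb from Cx3cr1, had 9 and 94 UMIs, a ratio of 2.38 (1.20 to 5.37). Sec22c, which acts in traffic from the endoplasmic reticulum, had 13 and 121 UMIs (2.12, 1.19 to 4.10), and Exog, a mitochondrial nuclease, 108 and 702 UMIs (1.48, 1.21 to 1.83). Bulk log2 changes were 0.04 for Sec22c and -0.05 for Exog, neither called.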
